A study of Homo sapiens with 24 samples.

Results

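The genes described here encode the machinery that licenses replication origins, fires them and copies DNA at the fork. They were taken from the deposited count table by symbol: of 47 listed symbols, 46 were found as protein coding rows, out of 48162 rows in all and 20312 protein coding rows. The remaining symbol, PRIM2, was listed under another gene type and is given apart. Gene counts were measured by RNA-seq in PPC1, an established prostate cancer cell line, in 4 conditions with 6 libraries each, 24 in all. Parental cells (UT) were plated on day 1 and harvested on day 5 with no irradiation. PGCC, the radiation induced polyploid giant cancer cells, received 8 Gy on day 2 and were those that a 20 micron filter held back on day 5. UT_LCL and PGCC_LCL were the same populations after 5 hours in 5 µM LCL521, a pro-drug inhibitor of the lysosomal enzyme acid ceramidase (ASAH1). All 4 conditions were harvested together in each of 6 independent runs of the experiment, and the replicate number marks the run. The labels name neither irradiation nor filtration for UT, so these differences between UT and PGCC cannot be told apart, and all libraries come from a single cell line.

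Before S phase, the origin recognition complex (ORC1 to ORC6) together with CDC6 and CDT1 loads the ring of MCM2 to MCM7 onto DNA, and geminin (GMNN) holds CDT1 in check to prevent a repeat of loading. The kinase CDC7 with its partner DBF4, and factors such as MCM10, then turn the loaded ring into the active helicase by adding CDC45 and the GINS complex. At the fork, polymerase alpha with primase starts each strand, the RFC loader places the PCNA clamp, polymerases delta and epsilon extend, RPA covers single strands, FEN1 and LIG1 finish the lagging strand, and TIMELESS, TIPIN and CLSPN steady the fork. Cells that become polyploid by endoreplication pass through such rounds of origin licensing without dividing between them.

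Total counts lay between 14835246 and 19906601 per library, so that 3 counts, taken as the floor of detection, stood for 0.151 to 0.202 CPM (counts scaled to a common library size). Every member was above it, with 17 to 8507 counts in a library, and all 46 passed the filter on low counts in every comparison. Of the epithelial markers, KRT8, KRT18 and KRT19 were at means of 70.3, 233 and 612 CPM in UT. EPCAM stayed at 0.204 CPM, next to the floor, so the listed epithelial markers were not all expressed. In PGCC KRT8 (log2 1.35) and KRT19 (0.42) were higher and KRT18 (-0.46) lower, and CDH1 (-0.61) did not pass. With LCL521 these directions were called again for KRT8 (1.51), KRT19 (0.38) and KRT18 (-0.38), and CDH1 was called as lower (-1.18, adjusted p = 0.0013). The prostate luminal markers KLK3, KLK2 and FOLH1 were at 0 in all 24 libraries. Of the immune markers PTPRC was 1.17 CPM in UT and 3.10 CPM in PGCC, a called rise, whereas CD3E and CD14 averaged at most 0.401 CPM. VWF and CDH5 averaged at most 0.552 CPM and DCN, LUM and PDGFRB at most 0.418 CPM in any condition. Whether PTPRC has a part in the values below was not tested.

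Between UT and PGCC, 32 of the 46 genes were higher in PGCC, 2 were lower and 12 did not pass the test. Over all 13812 genes tested, 47.4% passed, 23.1% as higher and 24.3% as lower. Of all genes called, 3186 were higher and 3355 lower, and with scaling by library totals alone 3820 and 2521, where 34 of the 46 genes were higher and 2 lower. The median log2 fold change was 0.93 over the 46 genes and -0.03 over all genes. The largest rise was in CDC45 (2.82 ± 0.19, log2 fold change ± SE), and the 2 falls were in ORC2 (-0.50 ± 0.11) and MCM6 (-0.40 ± 0.12). CPM of the 6 PGCC libraries lay above all 6 UT libraries for 31 genes and below them for 0, against 13.9% and 12.9% of all genes. The genes that did not pass were ORC1, ORC4, ORC5, CDT1, GMNN, GINS2, GINS3, POLD2, POLD3, PCNA, TIPIN and CLSPN. With the run as a block in the fit, 36 genes were higher and 3 lower, against 56.2% of all genes, 27.9% as higher and 28.3% as lower. In bulk RNA, fewer cells of a type and less RNA per cell cannot be told apart.

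**Figure D1:**
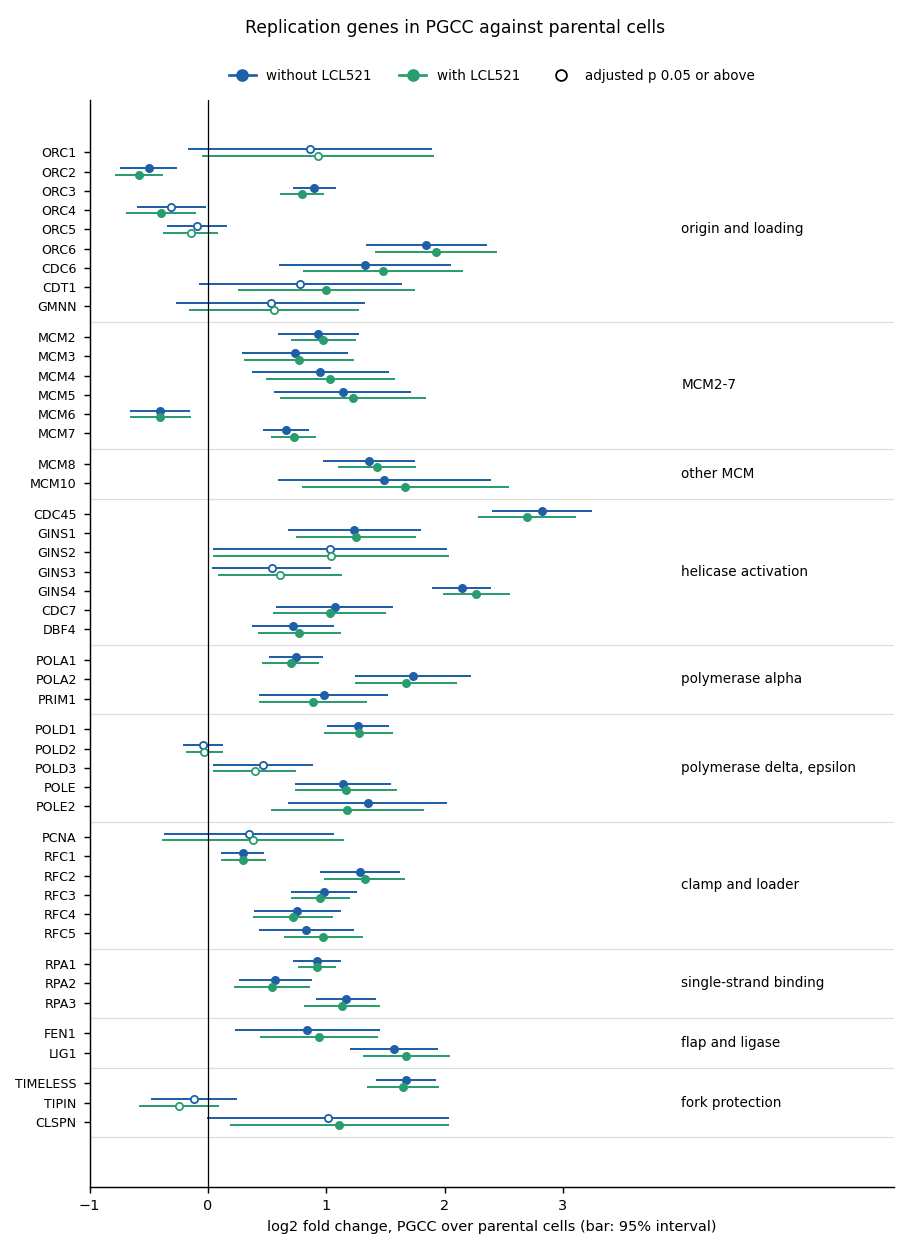
Log2 fold change of each gene between UT and PGCC, and between UT_LCL and PGCC_LCL, grouped by complex, with bars for the 95% interval; filled points passed the test. Most points lie above 0 in every group, from ORC2 at -0.50 to CDC45 at 2.82 without LCL521.

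RefSeq (GRCh38.p14) promoter windows of 300 bases, 250 before and 50 after the start, were found for 40 of the 46 genes, 50 windows in all, and CDC45, ORC6, MCM6 and ORC2 are printed below as the largest rise of all, the largest rise among origin genes and the 2 falls. RPA3, POLD3, MCM4, MCM5, RPA2 and GINS4 were not among the 40. Capitals mark E2F words, searched on both strands as TTTCCCGC, TTTGGCGC, TTTCGCGC and TTTGCCGC; E2F factors are known to drive many replication genes at the entry to S phase. The 250 bases before each start are given 5′ to 3′ on the gene's strand: chr22:19479576-19479825 on the plus strand for CDC45 (1 of 3 windows for this gene), chr16:46689409-46689658 on the plus strand for ORC6, chr2:135876444-135876693 on the minus strand for MCM6 and chr2:200963661-200963910 on the minus strand for ORC2.
CDC45: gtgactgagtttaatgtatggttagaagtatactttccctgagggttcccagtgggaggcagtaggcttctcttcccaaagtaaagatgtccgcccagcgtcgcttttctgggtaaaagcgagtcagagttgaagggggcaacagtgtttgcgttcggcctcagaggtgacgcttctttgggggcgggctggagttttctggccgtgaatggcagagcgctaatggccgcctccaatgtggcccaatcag
ORC6: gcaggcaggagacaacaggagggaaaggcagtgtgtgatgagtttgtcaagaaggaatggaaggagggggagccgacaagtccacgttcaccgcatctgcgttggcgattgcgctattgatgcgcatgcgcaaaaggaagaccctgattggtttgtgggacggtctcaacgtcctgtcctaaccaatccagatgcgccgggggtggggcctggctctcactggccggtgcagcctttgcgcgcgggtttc
MCM6: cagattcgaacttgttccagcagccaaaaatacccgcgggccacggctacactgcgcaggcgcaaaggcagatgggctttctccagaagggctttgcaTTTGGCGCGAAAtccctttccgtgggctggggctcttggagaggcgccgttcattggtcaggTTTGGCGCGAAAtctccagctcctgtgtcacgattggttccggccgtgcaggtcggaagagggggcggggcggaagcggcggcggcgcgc
ORC2: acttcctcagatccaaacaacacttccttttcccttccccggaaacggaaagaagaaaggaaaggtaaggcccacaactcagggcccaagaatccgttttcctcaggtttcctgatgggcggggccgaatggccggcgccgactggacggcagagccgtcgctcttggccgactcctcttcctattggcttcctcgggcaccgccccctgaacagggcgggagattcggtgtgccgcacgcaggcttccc

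MCM6, which fell, held 4 such words, as overlapping pairs of opposite strand, while CDC45, ORC6 and ORC2 held 0. An E2F word stood in 22 of the 50 windows (44.0%), against 3.31% of 35116 windows of the same length over all genes. The word CCAAT, on either strand, was in 29 windows (58.0%, against 34.6%), and TTTGAA, the core of the cell cycle homology region, was in 1 window (2.0%, against 15.2%), that of DBF4. Some E2F words overlapped each other on opposite strands, and all matches are descriptions of letters, not of binding. The windows over all genes were not matched to the 50 in base composition, and repeated sequences were left out only among the 50. Whether base composition has a part in these shares was not tested. Genes of both directions were found with and without an E2F word: of the 22 genes with a word 14 were higher, 1 lower and 7 not called, with a median log2 fold change of 0.96, and of the 18 without, 13 were higher, 1 lower and 4 not called, with a median of 0.85.

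In the origin group, 9 genes that mark and license origins, 3 were higher in PGCC, 1 was lower and 5 did not pass. Over all genes 23.1% passed as higher and 24.3% as lower, and these shares stand beside the counts of each group below. The median log2 fold change of the origin group was 0.78. ORC6 (hg19 chr16:46723555-46732306, plus strand), the smallest ORC subunit, rose most. Its level was 15.3 to 44.3 CPM with a median of 34.8 in UT, and 92.0 to 135 CPM with a median of 116 in PGCC. Every PGCC library was thus above every UT library, and the fold change was 3.60 (log2 1.85 ± 0.24, adjusted p = 2.5e-05).

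ORC2 (hg19 chr2:201773696-201828403, minus strand), a core subunit of the same complex, fell. Its level was 44.7 to 63.6 CPM with a median of 54.0 in UT and 31.4 to 45.4 CPM with a median of 38.4 in PGCC. The ranges touched only at their ends, PGCC was lower in 6 of 6 runs, and the log2 fold change was -0.50 ± 0.11 (adjusted p = 0.0017). ORC3 rose from 31.8 ± 2.96 to 58.9 ± 3.11 CPM (mean ± SD, n = 6 throughout), a log2 fold change of 0.90 ± 0.08. The loading factor CDC6 rose from 25.7 ± 13.6 to 63.9 ± 10.2 CPM (log2 1.32 ± 0.34).

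The other origin genes did not pass. ORC4 had a log2 fold change of -0.31 (95% interval -0.59 to -0.02, adjusted p = 0.071), and with the run as a block it was called as lower (-0.29, adjusted p = 0.012). ORC5 had -0.09 (-0.34 to 0.15). ORC1 had 0.86 (-0.16 to 1.89), CDT1 had 0.78 (-0.07 to 1.63) and GMNN had 0.53 (-0.26 to 1.32). With limma-voom ORC1 and CDT1 were called as higher (adjusted p = 0.036 and 0.038). They were also called with the run as a block and runs 4 and 5 left out (0.37 and 0.21, adjusted p = 0.011 and 0.030). GMNN was called under 0 settings. The wide intervals of these 3 genes came with wide ranges in UT: CDT1 was 7.95 to 63.8 CPM there and 64.3 to 87.1 CPM in PGCC, above every UT library. Among the ORC subunits, then, the log2 differences ran from -0.50 for ORC2 to 1.85 for ORC6.

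The MCM2 to MCM7 ring is a heterohexamer that holds 1 copy of each subunit, and its genes did not all move the same way. The genes of 5 subunits rose and that of MCM6 fell, with a median log2 fold change of 0.83. Of the ring, MCM5 rose most: 15.3 to 57.8 CPM with a median of 47.8 in UT against 78.3 to 105 CPM with a median of 89.4 in PGCC (log2 1.14 ± 0.27, adjusted p = 0.0030). No PGCC library was within the UT range. MCM2 (0.93 ± 0.16), MCM3 (0.74 ± 0.21), MCM4 (0.95 ± 0.27) and MCM7 (0.66 ± 0.09) rose with no overlap of libraries either.

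MCM6 (hg19 chr2:136597196-136633996, minus strand) was 71.3 to 120.4 CPM with a median of 98.8 in UT and 63.3 to 80.2 CPM with a median of 73.8 in PGCC. PGCC was lower in 5 of 6 runs and the ranges overlapped. The log2 fold change was -0.40 ± 0.12 (adjusted p = 0.010). The call was lost without run 2 (-0.30, adjusted p = 0.057) or run 3 (-0.35, adjusted p = 0.053).

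Per kilobase of gene length as the table lists it, the ring's genes could be set beside each other. In UT the mean level of MCM6 was 25.9 ± 4.73 CPM per kilobase, beside 26.5 ± 6.99 for MCM2 and 28.3 ± 12.5 for MCM4. These SDs take in runs 4 and 5, the lowest for these genes, so they do not show the levels to be equal. MCM4 was 48.2 and 54.4 CPM in those runs and 138 to 158 CPM in the others. MCM6 was 71.3 and 82.5 CPM there and 98.0 to 120 CPM in the others. In PGCC the level of MCM6 was 19.5 ± 1.84, beside 50.3 ± 5.66 for MCM2 and 54.3 ± 4.11 for MCM4, and next to MCM5 at 19.3 ± 2.17. MCM7 was the highest of the ring in both populations (85.0 ± 8.34 and 134 ± 12.7) and MCM3 was next (42.2 ± 14.5 and 69.9 ± 10.4). MCM5 was the lowest in UT, at 8.81 ± 3.92. In PGCC MCM6 and MCM5 shared the lowest place.

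**Figure D2:**
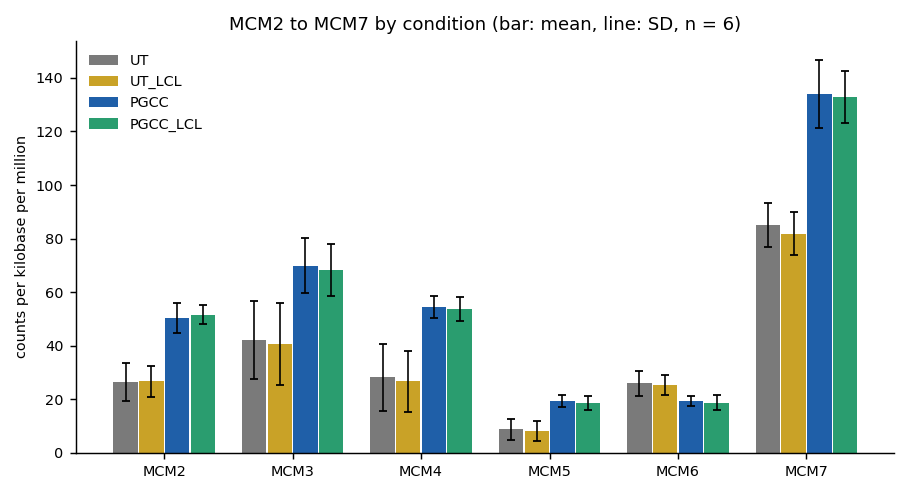
Level per length (CPM per kilobase of gene length) of the 6 genes of the MCM ring in the 4 conditions; bars are means and error bars the SD of 6 libraries. MCM6 is the subunit whose bars are lower in PGCC (19.5) than in UT (25.9).

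The 2 MCM genes outside the ring both rose. MCM10, which helps to activate the loaded helicase, was 1.39 to 15.1 CPM with a median of 9.59 in UT and 19.3 to 27.7 CPM with a median of 25.4 in PGCC (log2 1.49 ± 0.41, adjusted p = 0.0088). MCM8, whose product acts with MCM9 in homologous recombination, was 8.65 to 21.2 CPM with a median of 16.3 in UT and 34.4 to 42.0 CPM with a median of 39.8 in PGCC (log2 1.36 ± 0.18). The libraries of the 2 populations did not overlap for either gene.

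The helicase activation group held CDC45 and GINS4, the genes with the largest rises of all members. Of its 7 genes 5 were higher in PGCC, 0 were lower and 2 did not pass, with a median log2 fold change of 1.07. CDC45 (hg19 chr22:19466982-19508135, plus strand), which joins MCM and GINS to form the moving helicase, was 4.57 to 10.9 CPM with a median of 10.4 in UT and 58.6 to 67.2 CPM with a median of 61.2 in PGCC. Even the highest UT library was far below the lowest PGCC library, and the fold change was 7.07 (95% interval of the log2 value 2.40 to 3.24, adjusted p = 1.3e-07). GINS4, 1 of 4 subunits of the GINS complex, rose from 6.54 ± 0.926 to 28.8 ± 1.96 CPM (log2 2.14 ± 0.11).

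The other GINS genes moved less. GINS1 rose from 11.8 ± 5.38 to 27.7 ± 1.05 CPM (log2 1.24 ± 0.26). GINS3, which had the smallest log2 fold change of the group, was 9.58 to 25.9 CPM with a median of 24.2 in UT and 25.4 to 34.3 CPM with a median of 27.3 in PGCC. That difference did not pass (0.54, 95% interval 0.04 to 1.03, adjusted p = 0.069), nor did that of GINS2 (1.03, 0.05 to 2.01, adjusted p = 0.077), though for GINS2 every PGCC library was above every UT library. With the run as a block both were called as higher (GINS3 0.62, adjusted p = 0.016, and GINS2 1.39, adjusted p = 0.031). Per length, the 4 GINS genes were 1.69 ± 0.239 (GINS4) to 9.13 ± 6.07 (GINS2) CPM per kilobase in UT. In PGCC they were 7.43 ± 0.505 (GINS4), 8.53 ± 0.322 (GINS1), 8.99 ± 1.22 (GINS3) and 18.5 ± 1.78 (GINS2), so that GINS4 stood next to GINS1 and GINS3. The kinase gene CDC7 (1.07 ± 0.23) and its activator DBF4 (0.72 ± 0.16) rose as well, each without overlap.

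All 3 protein coding genes of polymerase alpha and primase were higher in PGCC, with a median log2 fold change of 0.98. POLA2, the regulatory subunit, was 6.09 to 18.1 CPM with a median of 13.6 in UT and 39.6 to 44.6 CPM with a median of 41.2 in PGCC (log2 1.73 ± 0.23, adjusted p = 2.8e-05). POLA1, the catalytic subunit, was 11.1 to 15.1 CPM with a median of 14.3 in UT and 20.3 to 26.8 CPM with a median of 22.2 in PGCC (0.74 ± 0.10). Neither gene's ranges overlapped. PRIM1, the catalytic primase subunit, rose from 6.97 ± 2.93 to 13.7 ± 3.19 CPM (0.98 ± 0.25) with overlapping ranges. PRIM2, the large primase subunit, outside the 46 because of its listed gene type, rose from 10.9 ± 1.82 to 27.7 ± 3.67 CPM (1.35 ± 0.13).

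Of the 5 genes of polymerases delta and epsilon, 3 were higher and 2 did not pass, with a median log2 fold change of 1.14. POLE2, a small subunit of epsilon, was 1.33 to 7.25 CPM with a median of 5.78 in UT and 9.97 to 17.6 CPM with a median of 11.8 in PGCC (1.35 ± 0.31, adjusted p = 0.0026). POLD1, the catalytic subunit of delta, rose from 46.9 ± 8.57 to 112 ± 12.0 CPM (1.27 ± 0.12), and POLE, that of epsilon, from 25.3 ± 7.80 to 55.5 ± 8.57 CPM (1.14 ± 0.19). None of these 3 overlapped between the populations. POLD2, an accessory subunit of delta, was 145 to 179.8 CPM with a median of 163 in UT and 142 to 177 CPM with a median of 156 in PGCC. Its difference was -0.04 with an interval of -0.20 to 0.12, the narrowest of the genes not called. POLD3, another accessory subunit, had 0.47 (0.05 to 0.88, adjusted p = 0.061), and was called as higher with the run as a block (0.54, adjusted p = 0.024).

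The 5 genes of the clamp loader all rose, while the clamp itself did not pass; the median log2 fold change of the 6 genes was 0.79. RFC2 was 17.1 to 36.4 CPM with a median of 29.9 in UT and 62.5 to 73.7 CPM with a median of 66.0 in PGCC (1.28 ± 0.15, adjusted p = 1.5e-05). RFC1, the large subunit, was 53.0 to 72.2 CPM with a median of 67.4 in UT and 71.0 to 83.4 CPM with a median of 80.3 in PGCC (0.29 ± 0.08, adjusted p = 0.0093). RFC2 ranges were apart and RFC1 ranges overlapped, yet RFC1 was higher in 6 of 6 runs. RFC3 (0.98 ± 0.13), RFC5 (0.83 ± 0.18) and RFC4 (0.76 ± 0.17) lay between them.

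PCNA (hg19 chr20:5095599-5107272, minus strand), the sliding clamp, is described here after its values were seen, as are ORC1, CLSPN, GINS2, CDT1 and GMNN. It was 35.5 to 184 CPM with a median of 149 in UT and 126 to 174 CPM with a median of 154 in PGCC. The UT range enclosed the PGCC range, and the log2 difference was 0.35 (95% interval -0.36 to 1.06, adjusted p = 0.41). Without runs 4 and 5 it was 0.00 (adjusted p = 0.99). Per length PCNA had, at 89.7 ± 47.4 CPM per kilobase, the highest mean of the 46 in UT, beside MCM7 (85.0 ± 8.34). Its SD takes in runs 4 and 5 (35.5 and 46.1 CPM, against 140 to 184 CPM in the others). It therefore does not show the levels of PCNA and MCM7 to be alike. In PGCC the level of PCNA was 113 ± 11.9, below MCM7.

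The 3 RPA genes, whose products coat single-stranded DNA, were all higher in PGCC, with a median log2 fold change of 0.92. RPA3, the smallest subunit, was 12.9 to 20.1 CPM with a median of 16.4 in UT and 33.6 to 41.6 CPM with a median of 36.6 in PGCC (1.17 ± 0.11, adjusted p = 2.2e-06). RPA2 was 36.9 to 68.5 CPM with a median of 55.5 in UT and 67.5 to 88.2 CPM with a median of 76.7 in PGCC (0.57 ± 0.14, adjusted p = 0.0042). RPA3 libraries were apart and RPA2 libraries overlapped at their ends. RPA1, the large subunit, rose from 166 ± 19.2 to 313 ± 31.9 CPM (0.92 ± 0.09).

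For the lagging strand, the ligase LIG1 was 7.95 to 16.4 CPM with a median of 11.7 in UT and 27.4 to 43.2 CPM with a median of 35.2 in PGCC (1.57 ± 0.17, adjusted p = 5.2e-06). The flap nuclease FEN1 was 23.2 to 92.8 CPM with a median of 84.9 in UT and 108 to 135 CPM with a median of 121 in PGCC (0.84 ± 0.28, adjusted p = 0.024). Both rose without overlap. The FEN1 call was lost without run 1 (0.87, adjusted p = 0.053) or run 5 (0.71, adjusted p = 0.056).

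Of the 3 fork protection genes only TIMELESS passed. It was 17.3 to 29.0 CPM with a median of 22.9 in UT and 68.4 to 74.7 CPM with a median of 72.3 in PGCC (1.67 ± 0.12, adjusted p = 1.3e-07). TIPIN, whose product binds TIMELESS, was 7.93 to 15.03 CPM with a median of 13.3 in UT and 9.36 to 12.8 CPM with a median of 10.8 in PGCC (-0.12, 95% interval -0.47 to 0.24, adjusted p = 0.58). The partners thus stood apart: TIMELESS libraries did not overlap and the PGCC range of TIPIN lay inside its UT range. Without runs 4 and 5 TIPIN was called as lower (-0.33, adjusted p = 0.036). CLSPN, an adaptor for checkpoint signalling, had 1.01 (-0.00 to 2.03, adjusted p = 0.092), and was called as higher with the run as a block (1.36, adjusted p = 0.018).

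**Figure D3:**
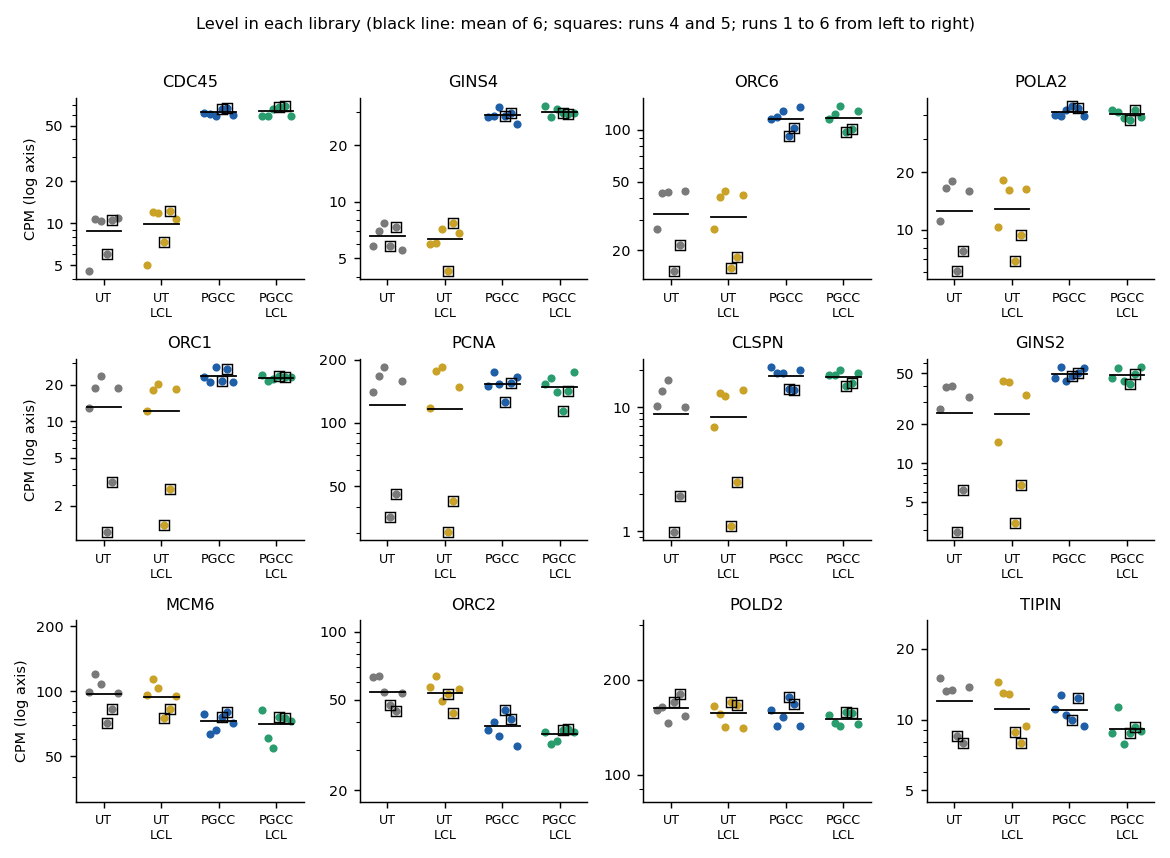
CPM (log axis) of 12 of the genes in each of the 24 libraries by condition, with squares for runs 4 and 5. For CDC45 the PGCC libraries (58.6 to 67.2) stand clear of UT (4.57 to 10.9), while for PCNA runs 4 and 5 (35.5 and 46.1) are the lowest of UT. Black lines are means of 6 libraries.

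The parental libraries spread much more than the PGCC libraries. Over the 46 genes, the median SD of log2 CPM among 6 libraries was 0.466 in UT and 0.149 in PGCC, and over all 14555 genes it was 0.305 and 0.214. The SD was larger in UT than in PGCC for 45 of the 46 genes, against 71.3% of all genes. The highest UT library exceeded the lowest by over 4 times for 10 of the 46 genes and by over 2 times for 27. None of the 46 reached 2 times in PGCC. How many of all genes passed these ratios was not counted. In UT the libraries of runs 4 and 5 were the lowest pair for 34 of 46 genes, against 25.5% of all genes, and in PGCC for 6 of 46, against 18.7%. What sets these runs apart was not tested.

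ORC1, the largest ORC subunit, had the widest range. Its UT values in runs 1 to 6 were 12.9, 18.6, 23.7, 1.22, 3.15 and 18.8 CPM, so that the highest was 19.5 times the lowest. Its PGCC values, at 20.9 to 27.9 CPM, were close together. CLSPN followed in UT with 0.987 to 16.6 CPM (16.8 times), GINS2 with 2.90 to 39.9 CPM (13.7 times), MCM10 (10.8 times), CDT1 (8.03 times) and GMNN (7.60 times), and for each the lowest pair was runs 4 and 5. By contrast POLD2, RFC1, ORC3 and POLA1 in UT, with highest-to-lowest ratios of 1.24, 1.36, 1.25 and 1.35, had little spread and no such low pair.

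**Figure D4:**
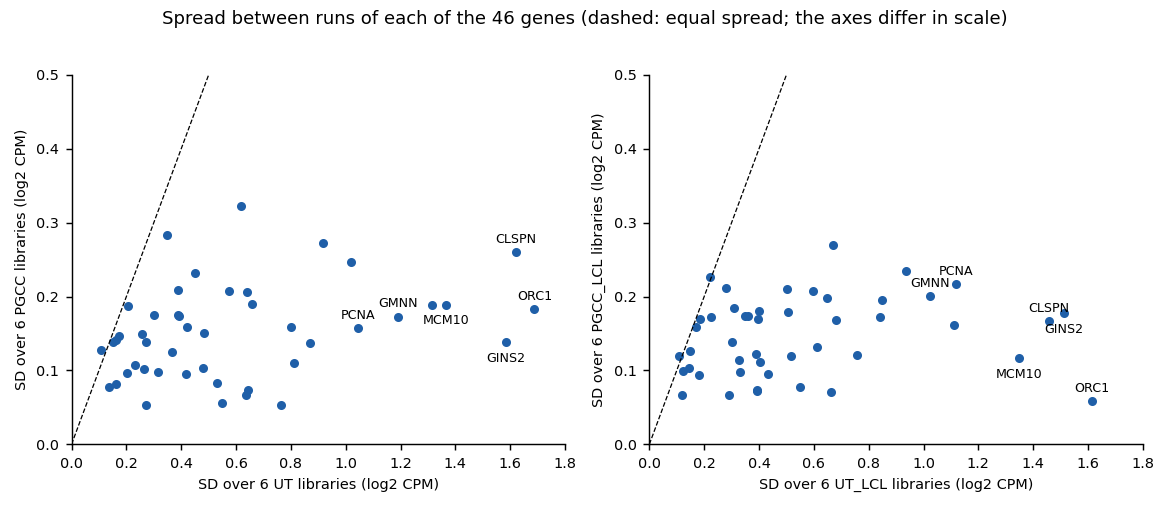
SD of log2 CPM between the 6 libraries of UT (x axis) and of PGCC (y axis) for each gene, and the same for UT_LCL and PGCC_LCL in the right panel, with axes of different scale and a dashed line at equal spread. In the left panel ORC1 lies farthest right, and 45 of 46 genes have the larger SD in UT.

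Within runs, PGCC against UT gave a median log2 difference over the 46 genes of 0.92, 0.46, 0.56, 1.77, 1.73 and 0.70 in runs 1 to 6, above 0 in each. PGCC was higher in 6 of 6 runs for 36 genes and lower in 6 of 6 for 2. The share of all genes with the same sign in each run was not counted. These counts are therefore not shown to be particular to the 46 genes. CDC45 was 2.43 to 3.73 across runs, GINS4 was 1.99 to 2.27 and TIMELESS was 1.23 to 2.08. ORC1 was 4.01 and 3.05 in runs 4 and 5 and between 0.17 and 0.83 in the others. PCNA was 1.82 and 1.75 in those runs and between -0.26 and 0.10 in the others. MCM6 was 0.09 and -0.04 there and between -0.93 and -0.34 elsewhere.

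Leaving out runs 4 and 5 altogether, 35 genes were higher and 4 lower in PGCC (54.6% of all genes, 27.7% and 26.9%), with a median log2 fold change of 0.67. Of the 34 genes called with all runs, 8 had a log2 fold change more than 1.5 times smaller without these runs, and all 8 were still called: MCM3 (0.74 to 0.35), MCM4 (0.95 to 0.61), MCM5 (1.14 to 0.72), POLE2 (1.35 to 0.84), PRIM1 (0.98 to 0.52), RFC4 (0.76 to 0.41), RPA2 (0.57 to 0.35) and FEN1 (0.84 to 0.52). The rises of CDC45 (2.74), ORC6 (1.68), POLA2 (1.41) and LIG1 (1.37) were each within 1.5 times of those with all runs, as were the falls of ORC2 (-0.70) and MCM6 (-0.59). CLSPN (0.66), GINS2 (0.56) and GINS3 (0.30) were then called as higher and ORC4 (-0.37) as lower.

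**Figure D5:**
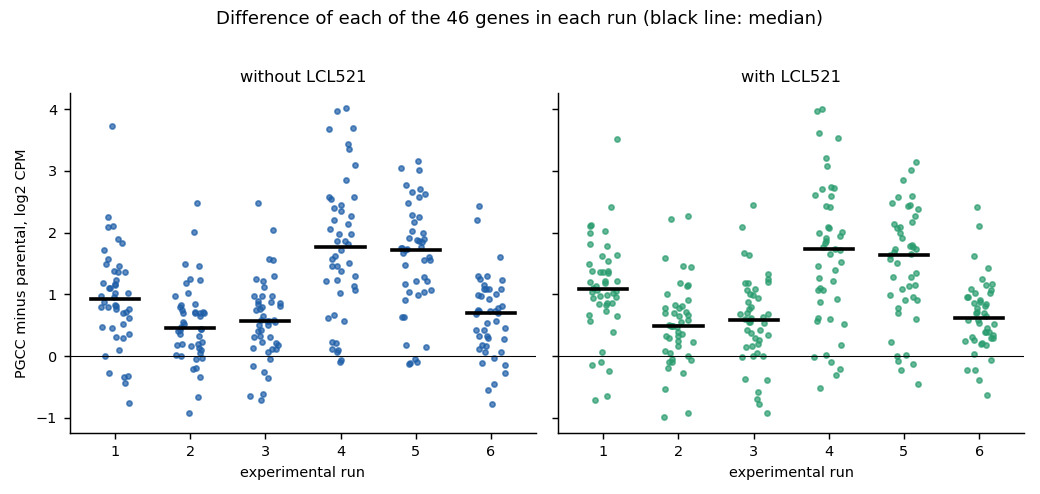
Log2 difference between PGCC and UT in each of the 6 runs for the 46 genes, as 1 point a gene with a black line at the median, and the same with LCL521 in the right panel. Without LCL521 the median difference is 1.77 and 1.73 in runs 4 and 5 and between 0.46 and 0.92 in the other runs.

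The same contrast in the presence of LCL521, which shares no library with the first but comes from the same 6 runs, gave 34 higher genes, 3 lower and 9 not called, with a median log2 fold change of 0.96. Over all 13818 genes 48.9% passed, 25.0% as higher and 23.9% as lower. All 32 genes higher without LCL521 were higher with it, and both falls were falls again (ORC2 -0.58 ± 0.09, MCM6 -0.40 ± 0.12). The additional calls were CDT1 (1.00 ± 0.35) and CLSPN (1.11 ± 0.43) as higher and ORC4 (-0.39 ± 0.13) as lower. The largest rise was again in CDC45, from 9.88 ± 3.00 to 63.1 ± 5.23 CPM (2.70 ± 0.19), followed by GINS4, from 6.33 ± 1.20 to 30.0 ± 1.42 CPM (2.27 ± 0.13). ORC6 (1.93), LIG1 (1.68), POLA2 (1.67), MCM10 (1.67) and TIMELESS (1.65) came next.

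With LCL521 the PGCC_LCL libraries lay above all UT_LCL libraries for 31 genes and below them for 1, ORC2, against 14.4% and 13.7% of all genes. ORC2 was 44.0 to 63.5 CPM with a median of 54.4 in UT_LCL and 31.9 to 37.4 CPM with a median of 36.2 in PGCC_LCL. The wider spread of parental cells was present here too, with a median SD of log2 CPM of 0.403 in UT_LCL and 0.160 in PGCC_LCL, and PCNA was 30.2 to 184 CPM in UT_LCL against 114 to 175 CPM in PGCC_LCL. With the run as a block, ORC1 (1.26, adjusted p = 0.046), GMNN (0.76, adjusted p = 0.031), GINS2 (1.44, adjusted p = 0.017), GINS3 (0.69, adjusted p = 0.0076) and POLD3 (0.44, adjusted p = 0.023) were called as well, giving 39 higher and 3 lower (56.3% of all genes, 29.5% and 26.8%). Without runs 4 and 5, 8 of the 37 calls were over 1.5 times smaller (CDT1 0.48, CLSPN 0.73, MCM3 0.38, MCM5 0.78, POLE2 0.72, PRIM1 0.58, RFC4 0.48 and RPA2 0.33), all still called. In that fit 36 genes were higher and 4 lower (52.5% of all genes), with GINS3 (0.40), ORC1 (0.42) and TIPIN (-0.39) called in addition.

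Some calls under LCL521 were lost when a single run was left out or under another setting. Those of ORC4 and MCM6 were lost without run 2 (-0.37 and -0.31) or run 3 (-0.31 for each). That of CDT1 was lost without run 1 (1.02) or run 5 (0.78). That of RFC1 was lost without run 1 (0.23), and that of CLSPN without run 1, 2, 3 or 5 (0.96 to 1.27). The CLSPN call was also lost with DESeq2 (adjusted p = 0.059), with upper quartile factors (0.053) and with all 24 libraries in one fit (0.066), and that of RFC1 with no filter beyond 1 count (0.067).

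Whether 5 hours of LCL521 changed these genes was asked in each population, with the libraries already used above. In parental cells 0 of 46 genes passed, as did 0 of all 13277 genes tested (0.0%), of which 71 had an unadjusted p under 0.05. The log2 differences of the 46 genes lay between -0.14 and 0.17, with a median of -0.04, and 0 had an unadjusted p under 0.05. The smallest p-values belonged to ORC3, TIMELESS and RFC5, at adjusted p of 1.0. ORC3 was 27.8 to 34.6 CPM with a median of 32.4 in UT and 29.9 to 35.6 CPM with a median of 33.8 in UT_LCL (0.06, 95% interval -0.11 to 0.24). TIMELESS was 18.1 to 33.1 CPM with a median of 23.6 in UT_LCL (0.12, -0.25 to 0.49), and RFC5 was 14.1 to 30.2 CPM with a median of 24.6 in UT and 13.4 to 26.3 CPM with a median of 20.9 in UT_LCL (-0.14, -0.64 to 0.35). The ranges overlapped for all 3. These intervals come from the fit without the run as a block. Within runs TIMELESS was higher in UT_LCL than in UT in 6 of 6 (log2 difference 0.034 to 0.202), the only 1 of the 46 genes to be so. The share of all genes higher in each run was not counted.

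In PGCC 0 of 46 genes passed as well, against 0.00707% of all 14151 genes, where 218 had an unadjusted p under 0.05. The log2 differences of the 46 genes lay between -0.26 and 0.08, with a median of -0.04. TIPIN had the smallest p: it was 7.87 to 11.4 CPM with a median of 8.84 in PGCC_LCL beside 9.36 to 12.8 CPM with a median of 10.8 in PGCC (-0.26, 95% interval -0.49 to -0.03, unadjusted p = 0.031, adjusted p = 0.9999), lower in 6 of 6 runs with overlapping ranges. POLD3 was 24.2 to 30.1 CPM with a median of 26.2 in PGCC_LCL and 27.5 to 30.2 CPM with a median of 29.5 in PGCC (-0.14, -0.29 to 0.02), and ORC5 was 24.9 to 35.2 CPM with a median of 29.7 in PGCC_LCL and 30.5 to 37.0 CPM with a median of 33.4 in PGCC (-0.14, -0.31 to 0.04). The intervals of POLD3 and ORC5 took in 0, and TIPIN was the only 1 of the 46 with an unadjusted p under 0.05. In all, 4 of the 46 genes were lower in 6 of 6 runs: TIPIN, POLD3, POLE2 and ORC4. The share of all genes lower in each run was not counted.

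With the run as a block 0 of 46 genes passed in either population, although 0.866% of all genes did in parental cells and 1.65% in PGCC, there 1.08% as higher and 0.572% as lower. In that fit 2 of the 46 had an unadjusted p under 0.05 in parental cells, against 1648 of all 13277 genes. The lowest adjusted p of the 46 was 0.36. In PGCC 5 of the 46 had an unadjusted p under 0.05, against 2030 of all 14151 genes, and the lowest adjusted p was 0.10. The response to LCL521 was not shown to differ between populations either. The interaction gave 0 of 46 genes and 0 of 14555 genes (0.0%, 60 with an unadjusted p under 0.05). The smallest p-values were those of ORC3 (-0.12, 95% interval -0.34 to 0.10), ORC2 (-0.10, -0.40 to 0.20) and GINS4 (0.11, -0.22 to 0.43). ORC2, GINS4 and ORC3 levels in PGCC_LCL were 35.3 ± 2.27, 30.0 ± 1.42 and 56.3 ± 4.65 CPM, beside 38.3 ± 4.96, 28.8 ± 1.96 and 58.9 ± 3.11 CPM in PGCC.

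Other genes of firing and the fork, 32 that were not among the 46, were followed in the same fit. Of these 19 were higher in PGCC, 3 were lower and 10 did not pass, with a median log2 fold change of 0.73. Over all genes tested 23.1% were higher and 24.3% lower. The largest rises were in the histone chaperone ASF1B, from 25.0 ± 8.53 to 115.7 ± 10.5 CPM (2.22 ± 0.20), in DTL, which directs the degradation of CDT1 (1.60 ± 0.34), and in CHTF18, of an alternative clamp loader (1.56 ± 0.24). The falls were in MCM9, the partner of MCM8, from 12.0 ± 3.28 to 7.75 ± 0.739 CPM (-0.62 ± 0.17), in the paralog ASF1A (-0.46 ± 0.10) and in SSRP1, a subunit of the histone chaperone FACT (-0.36 ± 0.06). MCM8 and MCM9, like ASF1B and ASF1A, therefore had log2 fold changes of opposite sign. All 15 genes of a mitotic list were higher in PGCC, with a median log2 fold change of 2.19, from CENPF (1.44 ± 0.37) to KIF20A, a kinesin of cytokinesis, at 10.5 ± 6.13 CPM in UT and 106 ± 13.0 CPM in PGCC (3.33 ± 0.35).

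Of the 46 genes, 25 overlap another listed gene in hg19, and for 12 the neighbour held over 10% as many counts. These include PRIM1 beside NACA, RFC4 beside EIF4A2, FEN1 beside FADS2, GINS2 beside GSE1, POLE beside GOLGA3 and RFC5 beside WSB2, where the neighbour had more counts than the gene. No source used here states if the counting was by strand, so the values of these genes are uncertain to that extent.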

How the data were processed

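Per the labels, RNA of PPC1 cells was made into Illumina libraries, and the submitters' processing notes name CASAVA, STAR, HTSeq, DESeq2 and hg19. The authors deposited whole-number counts per gene without normalization, in 1 table of 48162 genes with symbols, gene types, lengths and hg19 coordinates. The annotation release and the use of strand are not given in the sources used here. Columns were matched to samples by name, and 0 count columns were left without a sample.

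Counts were analysed with edgeR 4.0.16 and limma 3.58.1 in R 4.3.3. Genes were kept by filterByExpr (minimum count 10, minimum total 15), scaled by TMM and tested with the quasi-likelihood test on the 12 libraries of each comparison, or on all 24 for the interaction of LCL521 with population. P-values were adjusted by Benjamini-Hochberg over all genes tested, and called under 0.05 at any fold. Intervals are at 95%. CPM are counts scaled by TMM over all 24 libraries, log2 CPM carry a prior count of 2, and levels per length divide CPM by gene length in kilobases. Libraries of the same condition differed beyond sampling noise (chi-square per degree of freedom 5.05 to 120 over 60 pairs). The floor of 3 counts covers counting error only.

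The replicate numbers come from the labels, and the design text says that each number is a run harvested in parallel in all 4 conditions. Same-numbered libraries deviated together: the correlation of their deviations from condition means exceeded 0.1 in all 6 pairs of each comparison, with medians of 0.34 (PGCC against UT), 0.27 (with LCL521), 0.65 (UT_LCL against UT) and 0.53 (PGCC_LCL against PGCC). The PGCC library of run 4 correlated more with a UT library of another run than with its own. So did the PGCC_LCL libraries of runs 3, 5 and 6 with UT_LCL libraries of other runs. The tests were fitted without a block and repeated with the run as a block.

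The genes, lists and tests were chosen with earlier results of these data known. Values per library are given for the members with the largest and smallest log2 fold change in each of 10 groups and for the 3 smallest p-values of each LCL521 comparison. From the list of other firing and fork genes, the 3 largest rises and 3 largest falls past the threshold are named, and from the mitotic list the largest and the smallest change, as it held no fall. Promoters are RefSeq windows of GRCh38.p14, and gene coordinates are hg19. The alternatives were RLE and upper quartile factors, library totals, other count filters, DESeq2 1.42.0, limma-voom, all libraries in one fit, the run as a block, and runs left out. The test was first tried on simulated counts with the same spread setting for all genes and no effect of the run. That trial does not cover the differences between runs seen here. Some genes of the marker lists are not reported here.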

Additional observations from a re-analysis of the deposited data

Results flagged for a closer look

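In 6 of 184 groups of 6 libraries, the highest or lowest library stood apart by Dixon's ratio, the gap to its nearest neighbour over the group's range, with a critical value of 0.625. Chance alone flags about 1 in 20 groups. In PGCC_LCL, MCM2 was highest in run 1 (212 CPM, next 187, ratio 0.711), POLA1 was highest in run 1 (27.2, next 22.4, ratio 0.667), and RFC1 was highest in run 1 (90.1, next 75.3, ratio 0.788). PRIM1 was highest in run 5 of PGCC_LCL (16.9 CPM, next 13.1, ratio 0.700), and TIMELESS was lowest in run 6 (64.5 CPM, next 74.0, ratio 0.629). In PGCC, POLE2 was highest in run 5 (17.6 CPM, next 12.3, ratio 0.691). Without run 1 the RFC1 call under LCL521 was lost (log2 0.23, adjusted p = 0.051), while those of MCM2, POLA1, PRIM1, TIMELESS and POLE2 held with each run left out in turn.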

How the results depend on the processing

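No value changed direction past a threshold under the alternatives run. Between PGCC and UT, 34 members were called, 33 to 34 with each run left out in turn and 34 to 42 under the other settings, and 36 of 46 genes kept their call under every setting. With LCL521 the counts were 37, 34 to 38 and 36 to 42, and 35 of 46 genes kept theirs. Left-out runs gave 5529 to 6333 calls over all genes without LCL521 and 5734 to 6339 with it. With scaling by library totals, the median over all genes went from -0.03 to 0.07 (log2), and the calls from 3186 higher and 3355 lower to 3820 and 2521. With LCL521 these were 3454 and 3304 against 3819 and 2825. That scaling changed the members' counts to 34 higher and 2 lower, and 36 and 3 with LCL521. The run as a block changed no call beyond those named beside the results. For LCL521 in parental cells it raised the count over all genes from 0 to 115, and without runs 4 and 5 as well to 3. DESeq2 gave 0 there, with 83 at an unadjusted p under 0.05. For LCL521 in PGCC, 1 gene became 234 with the block, 129 with the block and without runs 4 and 5, 6 with DESeq2, and 0 with limma-voom, with all 24 libraries in one fit or without runs 4 and 5. Leaving out each run in turn gave 0 to 1. The member counts stayed at 0 in both LCL521 comparisons and the interaction under each setting; the interaction over all genes gave 0 with DESeq2 (54 at an unadjusted p under 0.05). The lowest count of a member in a library was 17, and 95% intervals were over 1.5 log2 units wide between PGCC and UT for ORC1, CDT1, GMNN, MCM10, GINS2 and CLSPN. The cause of their width was not tested.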
